A study of Homo sapiens with 12 samples.

Results

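The genes examined here are 10 members of the BCL2 family of apoptosis regulators: BIK, BCL2L11, BBC3, PMAIP1, BID, BCL2, BCL2L1, MCL1, BAX and BAK1. They were taken by gene symbol, with every probe of each symbol, out of 16578 genes on the array. The array carried 16 probes for them: 5 genes had 1 probe, 4 had 2 and BCL2 had 3. Of these probes, 15 passed the detection filter, which asked for a detection p-value under 0.05 on at least 3 arrays, and all 10 genes kept at least 1 probe. On all 12 arrays 13 probes were detected.

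The RNA was that of HEK293 cells, a line of human embryonic kidney origin, in 4 groups of 3 arrays. RPF1 Tet- cells are stable transfectants that carry RPF-1 cDNA in pTRE2puro, kept for 48 h without tetracycline (Tet), which switches this POU domain transcription factor on. RPF1 Tet+ cells are the same transfectants kept with Tet, so that the insert stays off. Mock Tet- and Mock Tet+ cells are the control transfectants in the same media. Whether a line is 1 clone or a pool, and whether replicates are separate cultures, is stated nowhere in the labels. The p-values therefore cover the spread of these arrays alone, which may be technical. The study set induced cells against uninduced and Mock cells to find genes that respond to RPF-1, and used the Mock line to see what Tet itself does.

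BCL2 family proteins decide whether the outer mitochondrial membrane stays intact. The effectors BAX and BAK1 open the membrane, the guardians BCL2, BCL2L1 (BCL-XL) and MCL1 hold them back, and the BH3-only proteins BIK, BCL2L11 (BIM), BBC3 (PUMA), PMAIP1 (NOXA) and BID either occupy the guardians or activate the effectors. Cells commonly express guardians and effectors at the same time, and the balance between guardians and BH3-only proteins sets how close a cell is to release of cytochrome c. Array signals measure RNA only, and much of this family is also controlled through protein cleavage, phosphorylation and turnover.

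Median raw signals lay between 277 and 357, and 13568 to 14493 probes were detected per array. RPF1 Tet- 2 (357 and 14493 probes) and RPF1 Tet- 3 (337 and 14318 probes) were the highest on both measures. RPF1 Tet- 1 had 289 and 13899 probes. The part of this in the results was not tested. Of 8 markers listed for the HEK293 line, 7 were detected on all 12 arrays and PAX2 on none. The log2 changes of these 7 in RPF1 Tet- against RPF1 Tet+ cells ran from -0.67 (CDH2) to 0.35 (KRT8). Of the blood cell markers 0 of 5 were detected on all arrays, with CD3E, CD14 and HBB on none, LYZ on 2 and PTPRC on 9. Of the fibroblast markers 3 of 6 were detected on all arrays, and their summed signal was 1083 to 1388 in RPF1 Tet-, against 2151 to 3307 in RPF1 Tet+, 2024 to 2315 in Mock Tet- and 2115 to 2339 in Mock Tet+. COL3A1 (-2.18) and LUM (-1.50) were lower on the log2 scale in RPF1 Tet- than in RPF1 Tet+ cells and COL1A1 was higher (0.42), so the list did not move together. The part of this difference in the results on the family was not tested. The arrays lay on 3 chips: chip 3 held RPF1 Tet- 2 and 3, chip 1 held Mock Tet+ 1 and 2, and chip 2 held the other 8. Chip 1 thus held Mock Tet+ arrays only, and chip 3 RPF1 Tet- arrays only. A fit with chip as a fixed block therefore rests on RPF1 Tet- 1 and Mock Tet+ 3 for these groups. One array of each group (RPF1 Tet- 2, RPF1 Tet+ 3, Mock Tet- 1 and Mock Tet+ 2) scored highest in it on the first component of the deviations from group means, which took 38.9% of the within-group variance. In bulk RNA, fewer cells of a kind and less RNA per cell cannot be told apart.

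In RPF1 Tet- against RPF1 Tet+ cells, BIK was called higher at 2.41-fold, BAX at 1.50-fold and BCL2L11 (ILMN_1774997) at 1.47-fold, and 0 member probes were called lower. These are 3 of the 15 member probes, or 20%, with a limma adjusted p under 0.05. Of all 14752 probes 12.7% passed in either direction, 915 higher and 962 lower. Uncalled member changes below 0 reached -0.20 on the log2 scale (BID probe ILMN_1763386). The median log2 change was 0.27 over the member probes and -0.01 over all probes. The remaining 12 member probes, among them all probes of BBC3, PMAIP1, BID, BCL2, BCL2L1, MCL1 and BAK1, did not pass. For 6 probes of 5 genes all 3 RPF1 Tet- values lay above the other 9 arrays, those of BIK, BCL2L11, BAX, PMAIP1 and both of BCL2L1. Over all probes 7.87% had this pattern. The opposite pattern, all 3 RPF1 Tet- values below the other 9, was held by 0 member probes. Its share over all probes was not counted, so this count is not read as a result about the family.

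**Figure D1:**
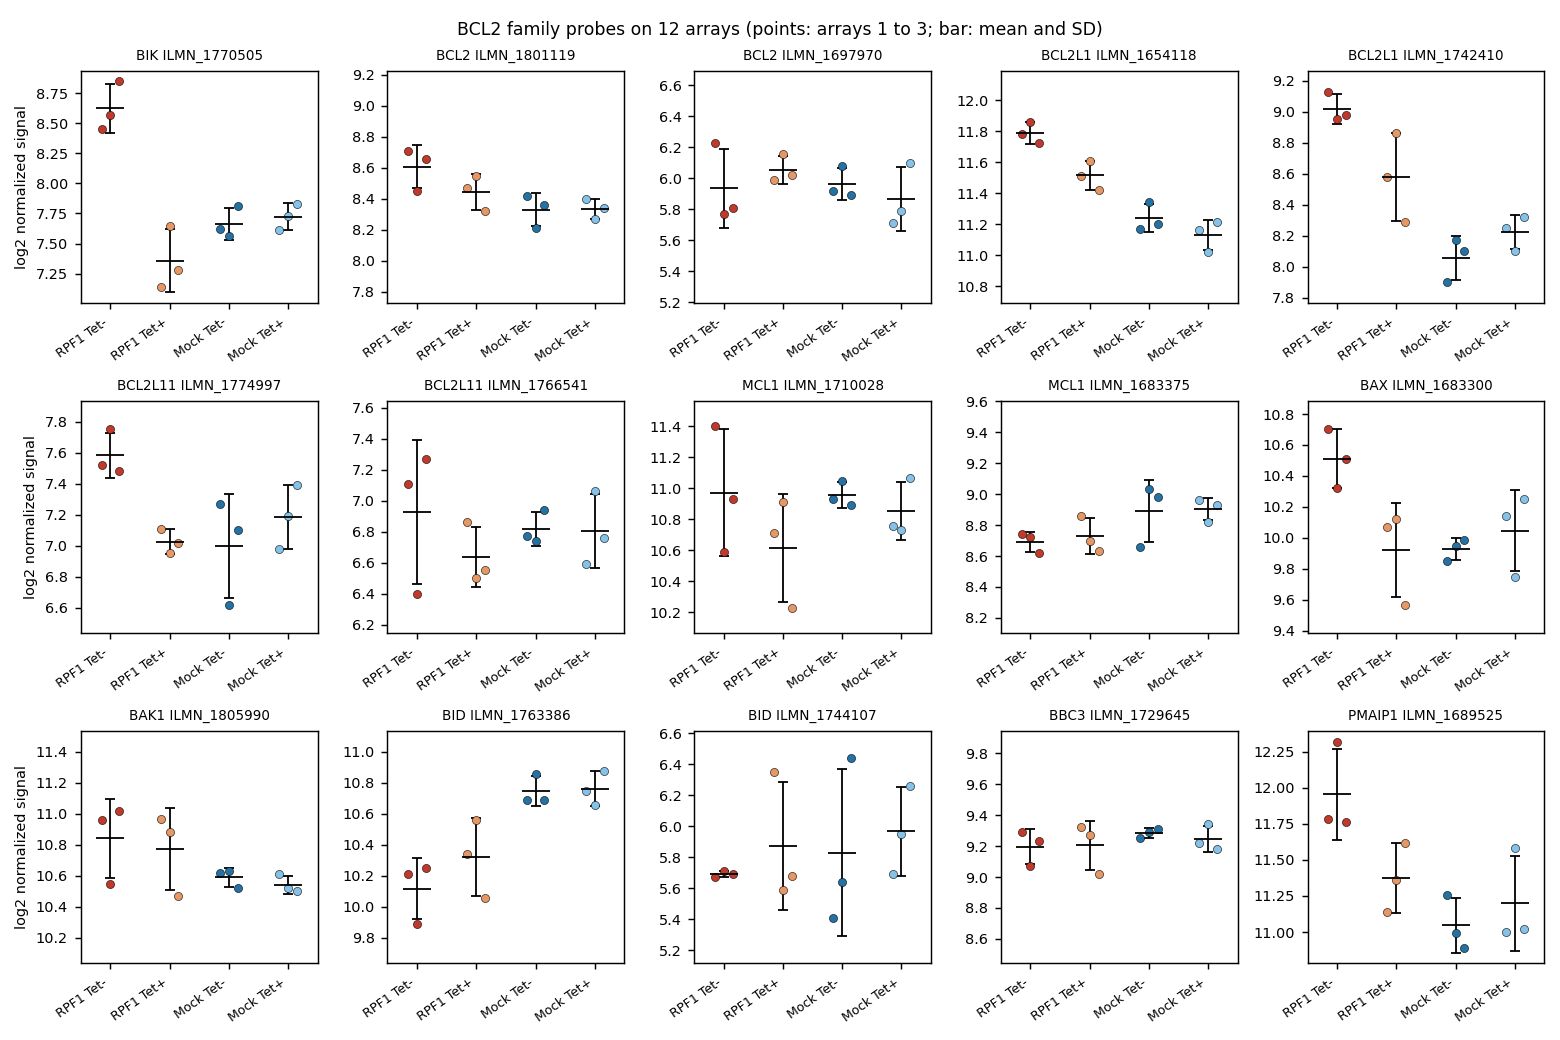
Log2 normalized signal (y axis, its own range in each panel) of the 15 member probes on the 12 arrays, by group (x axis), with points for arrays 1 to 3 and a bar for the mean with its SD. The 3 RPF1 Tet- points of BIK lie at 8.45 to 8.85, above the other 9 arrays, which reach 7.83, while those of BBC3 lie among the other groups.

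BIK, a BH3-only protein of the endoplasmic reticulum and mitochondria that binds the guardians, had the largest log2 change of the members. Its log2 normalized signal was 8.45, 8.57 and 8.85 in RPF1 Tet- cells, 7.14, 7.65 and 7.28 in RPF1 Tet+ cells, 7.62, 7.56 and 7.81 in Mock Tet- cells and 7.61, 7.73 and 7.83 in Mock Tet+ cells. The 3 induced arrays stood above all others, with no overlap, and the other 3 groups overlapped. On the raw scale the BIK probe ranged over intensities of 467 to 658 in RPF1 Tet- and 259 to 357 in RPF1 Tet+ cells. The log2 change was 1.27 ± 0.14 (limma SE, n = 3 each, limma adjusted p = 0.000155). It stayed past the threshold in all 26 alternatives, at 0.80 to 1.43 on the log2 scale. With chip as a fixed block it was 1.10 (limma adjusted p = 0.0205), a value that rests on RPF1 Tet- 1 as the single induced array of chip 2.

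**Figure D2:**
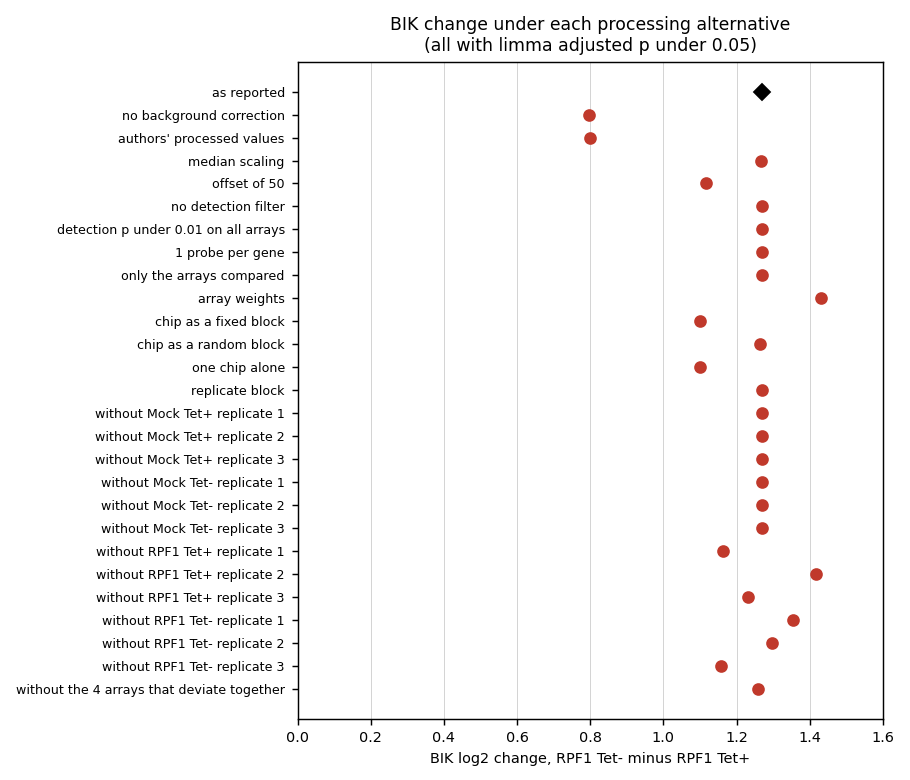
BIK log2 change, RPF1 Tet- minus RPF1 Tet+ (x axis), as reported (diamond) and under each processing alternative (circles, 1 per row). All values are above 0, the lowest being 0.80 with no background correction and the highest 1.43 with array weights.

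BCL2L11 encodes BIM, a BH3-only protein that binds all main guardians and can activate the effectors directly. Its probe ILMN_1774997 read 7.52, 7.75 and 7.48 in RPF1 Tet-, 7.11, 6.95 and 7.02 in RPF1 Tet+, 7.27, 6.62 and 7.10 in Mock Tet- and 6.98, 7.19 and 7.39 in Mock Tet+ cells on the log2 scale. The induced arrays lay above the rest, by 0.09 over the highest of the other 9. The log2 change of 0.56 ± 0.16 (SE, n = 3 each) passed (limma adjusted p = 0.0408), but it was lost without any 1 of 8 arrays, RPF1 Tet- 1, 2 or 3, RPF1 Tet+ 1, 2 or 3, Mock Tet- 3 or Mock Tet+ 2 (limma adjusted p up to 0.116). It was 0.49 with chip as a fixed block (limma adjusted p = 0.336) and 0.29 with the authors' processed values, still called. The second BCL2L11 probe, ILMN_1766541, is annotated to other transcript records. It read 7.11, 6.40 and 7.27 in RPF1 Tet- against 6.86, 6.50 and 6.55 in RPF1 Tet+ cells, so that the groups overlapped. Its log2 change of 0.29 had a 95% interval of -0.15 to 0.74 (limma adjusted p = 0.386), and without RPF1 Tet- 2 it became 0.56 and passed (limma adjusted p = 0.0404).

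PMAIP1 encodes NOXA, a BH3-only protein that binds MCL1 and is a known p53 target. Its log2 signal was 11.78, 12.32 and 11.76 in RPF1 Tet-, 11.14, 11.36 and 11.62 in RPF1 Tet+, 11.26, 10.99 and 10.89 in Mock Tet- and 11.00, 11.58 and 11.02 in Mock Tet+ cells. The lowest induced array, at 11.76, was 0.14 above the highest of the other 9. The log2 change of 0.58 ± 0.20 (SE, n = 3 each) did not pass over all probes (limma adjusted p = 0.0810). In each group the array that scored highest on the first component was the highest for PMAIP1. Without those 4 arrays the change was 0.52 and passed (limma adjusted p = 0.0192), while with chip as a fixed block it was 0.41 (limma adjusted p = 0.560).

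BBC3 encodes PUMA, a p53-induced BH3-only protein that binds all main guardians. BBC3 read 9.29, 9.07 and 9.23 in RPF1 Tet- and 9.32, 9.27 and 9.02 in RPF1 Tet+ cells, and the log2 difference of -0.01 had a 95% interval of -0.22 to 0.20. The ranges of these groups overlapped almost fully. BID, which caspase-8 cleaves to link death receptors with mitochondria, was read at probe ILMN_1763386 as 10.21, 9.89 and 10.25 in RPF1 Tet- and 10.34, 10.56 and 10.06 in RPF1 Tet+ cells. Its log2 change of -0.20 had a 95% interval of -0.50 to 0.09 (limma adjusted p = 0.369). The other BID probe, ILMN_1744107, was detected on 3 arrays only and on 0 of the RPF1 Tet- arrays, so it gives no fold.

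BCL2L1 encodes BCL-XL, a guardian of the outer mitochondrial membrane, and had 2 probes detected on all 12 arrays. Probe ILMN_1654118 read 11.78, 11.86 and 11.72 in RPF1 Tet-, 11.51, 11.61 and 11.42 in RPF1 Tet+, 11.17, 11.34 and 11.20 in Mock Tet- and 11.16, 11.02 and 11.21 in Mock Tet+ cells. Probe ILMN_1742410 read 9.13, 8.95 and 8.98 in RPF1 Tet-, 8.58, 8.86 and 8.29 in RPF1 Tet+, 7.90, 8.17 and 8.10 in Mock Tet- and 8.25, 8.10 and 8.32 in Mock Tet+ cells. At both probes the induced arrays were above the other 9, and the Mock groups overlapped. The induced over uninduced change was 0.27 ± 0.09 at the first probe (limma adjusted p = 0.0627) and 0.44 ± 0.13 at the second (limma adjusted p = 0.0535), both log2 with SE and n = 3 each, and neither passed. Without RPF1 Tet+ 2 the second became 0.58 and passed (limma adjusted p = 0.0152).

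BCL2, the family's founding guardian, was read by 1 probe detected throughout, ILMN_1801119, at 8.71, 8.45 and 8.66 in RPF1 Tet- and 8.47, 8.55 and 8.32 in RPF1 Tet+ cells. These overlap, and the log2 change of 0.16 had a 95% interval of -0.05 to 0.38 (limma adjusted p = 0.313). Of the other BCL2 probes, ILMN_1697970 was detected on 3 arrays and ILMN_1701120 on 0, so both were near background. MCL1, a guardian of short protein half-life, was read by probes that differed in spread. ILMN_1710028 read 11.40, 10.59 and 10.93 in RPF1 Tet- and 10.71, 10.91 and 10.23 in RPF1 Tet+ cells, and ILMN_1683375 read 8.74, 8.72 and 8.62 in RPF1 Tet- and 8.86, 8.70 and 8.63 in RPF1 Tet+ cells. Both probes overlapped between the groups. Their log2 changes were 0.36, with a 95% interval of -0.09 to 0.80, and -0.03, with an interval of -0.27 to 0.20.

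BAX, an effector that moves from the cytosol to mitochondria, read 10.70, 10.32 and 10.51 in RPF1 Tet-, 10.07, 10.12 and 9.57 in RPF1 Tet+, 9.85, 9.95 and 9.99 in Mock Tet- and 10.14, 9.75 and 10.25 in Mock Tet+ cells on the log2 scale. The lowest induced array, RPF1 Tet- 2, was 0.07 above the highest of the other 9. The log2 change was 0.59 ± 0.17 (SE, n = 3 each, limma adjusted p = 0.0408). It lost the call without any 1 of 8 arrays, RPF1 Tet- 1 or 3, RPF1 Tet+ 1 or 3, Mock Tet- 1, 2 or 3 or Mock Tet+ 1 (limma adjusted p up to 0.115), and was 0.78 with chip as a fixed block (limma adjusted p = 0.118). BAK1, the effector that sits in the mitochondrial membrane, read 10.96, 10.55 and 11.02 in RPF1 Tet- and 10.97, 10.88 and 10.47 in RPF1 Tet+ cells. The BAK1 groups overlapped, and the log2 change of 0.07 had a 95% interval of -0.25 to 0.39.

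Pro-apoptotic members with a promoter in the RefSeq table (GRCh38.p14) and all induced arrays above the rest are BAX, BCL2L11 (probe ILMN_1774997 only) and PMAIP1. The 250 bases before their gene starts are therefore shown, with E-boxes (CACGTG) and GC boxes (GGGCGG, on either strand) in capitals. The BAX window is chr19:48954625-48954874 (plus strand), that of BCL2L11 chr2:111120664-111120913 (plus strand) and that of PMAIP1 chr18:59899746-59899995 (plus strand). BIK and MCL1 are named only.
BAX: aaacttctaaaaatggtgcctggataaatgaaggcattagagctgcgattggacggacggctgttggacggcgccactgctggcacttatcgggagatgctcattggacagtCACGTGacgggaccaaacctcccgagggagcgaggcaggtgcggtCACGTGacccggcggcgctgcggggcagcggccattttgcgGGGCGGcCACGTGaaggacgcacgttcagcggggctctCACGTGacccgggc
BCL2L11: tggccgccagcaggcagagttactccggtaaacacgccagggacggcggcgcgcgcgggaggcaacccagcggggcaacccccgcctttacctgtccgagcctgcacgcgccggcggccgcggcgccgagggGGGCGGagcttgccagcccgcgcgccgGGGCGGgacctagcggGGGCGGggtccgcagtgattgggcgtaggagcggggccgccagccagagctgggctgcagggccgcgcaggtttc
PMAIP1: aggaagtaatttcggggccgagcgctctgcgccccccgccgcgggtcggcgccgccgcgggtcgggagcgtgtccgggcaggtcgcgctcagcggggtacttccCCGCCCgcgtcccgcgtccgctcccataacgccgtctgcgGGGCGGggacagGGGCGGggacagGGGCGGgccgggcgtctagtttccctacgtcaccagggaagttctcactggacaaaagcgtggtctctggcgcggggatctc
The BAX window held 4 E-boxes and 1 GC box, that of BCL2L11 3 GC boxes and that of PMAIP1 4 GC boxes, with no overlap between the motifs. BCL2L1, a guardian whose induced arrays also stood above the rest, had windows with 0 of either motif. Among members not above the rest, windows of BID held 0 to 4 GC boxes and 0 to 1 E-boxes. That of BAK1 held 2 GC boxes, that of BBC3 1 E-box and that of BCL2 0 of either. Both motifs were thus found in windows of members above the rest and of members not above it, and BIK had no window. A link between motif and change was not tested. Of 35116 such windows, 6.34% held an E-box and 42.6% a GC box. The octamer of POU factors (ATGCAAAT) was in 1.63% of windows and an E2F motif (TTTCGCGC) in 0.439%, both strands searched, and 0 of the 13 windows of the 8 member genes in the table held either. These are matches of letters and say nothing of binding.

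In Mock Tet- against Mock Tet+ cells 0 of 15 member probes passed, as did 0% of all 14752 probes in limma, and at an unadjusted p under 0.05 there were 0 member probes and 377 probes in all. Member log2 changes ran between -0.19 (BCL2L11 probe ILMN_1774997) and 0.11 (BCL2L1 probe ILMN_1654118). For BIK the log2 change was -0.06, with a 95% interval of -0.37 to 0.25.

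The difference of the Tet effects, RPF1 line minus Mock line, passed for 1 of 15 member probes, against 4.87% of all probes. That member was BIK, with a log2 difference of 1.33, SE 0.20, over 3 arrays a group (limma adjusted p = 0.00310). The BIK call was kept without any single array and lost with chip as a fixed block (1.27, limma adjusted p = 0.101) and without the 4 high-scoring arrays (1.29, limma adjusted p = 0.0710). With the authors' processed values it was 0.83, still called. The differences of BCL2L11 (0.74, ILMN_1774997), PMAIP1 (0.74), BAX (0.70) and BCL2L1 (0.61, ILMN_1742410) did not pass, with limma adjusted p between 0.0926 and 0.182. Without the 4 high-scoring arrays BAX was the 1 member called (0.73, limma adjusted p = 0.0381).

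**Figure D3:**
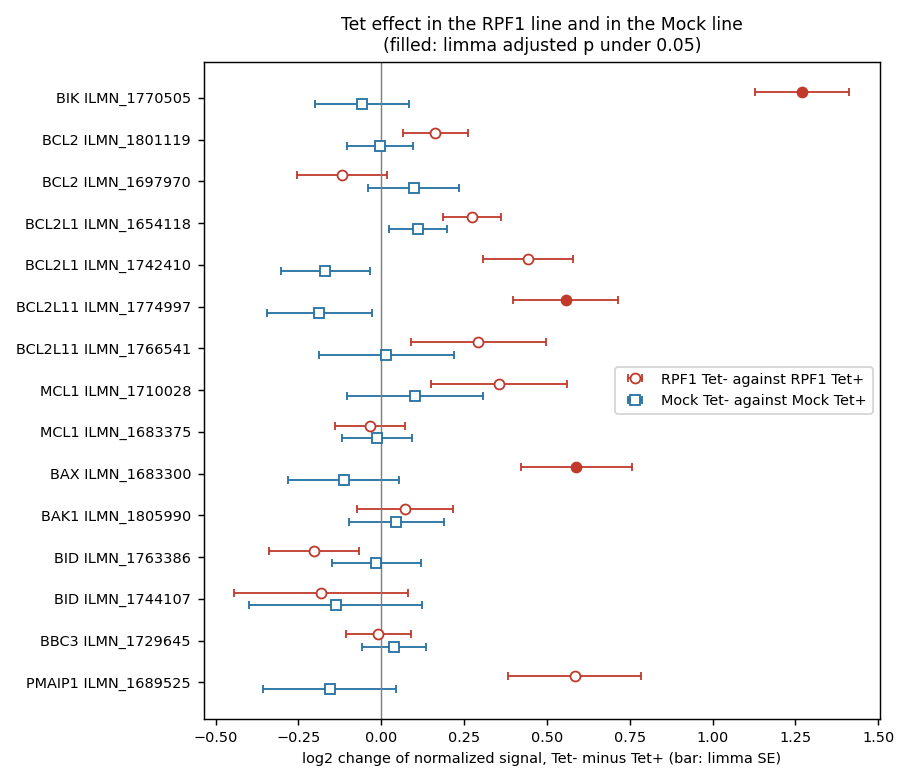
Log2 change on Tet removal (x axis, Tet- minus Tet+, bars for the limma SE) of the 15 member probes (y axis) in the RPF1 line (circles) and the Mock line (squares), filled where the limma adjusted p is under 0.05. BIK at 1.27, BAX at 0.59 and BCL2L11 at 0.56 are filled in the RPF1 line, and the Mock line has no filled point.

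In RPF1 Tet+ against Mock Tet+ cells, 1 member probe was higher and 1 lower, which is 13.3% of the 15, against 14.5% of all probes called, a share near the background. BCL2L1 probe ILMN_1654118 was higher, by 0.39 ± 0.09 on the log2 scale (SE, n = 3 each, limma adjusted p = 0.0142), with no overlap between the groups, and the call was lost without RPF1 Tet+ 2 (limma adjusted p = 0.0504). The other BCL2L1 probe, ILMN_1742410, had a change of 0.35 that did not pass (limma adjusted p = 0.109). BID probe ILMN_1763386 was lower: it read 10.34, 10.56 and 10.06 in RPF1 Tet+ and 10.75, 10.66 and 10.88 in Mock Tet+ cells. Its log2 change was -0.44 ± 0.14 (SE, n = 3 each, limma adjusted p = 0.0483), and it was lost without any 1 of 10 arrays, all but RPF1 Tet+ 2 and RPF1 Tet- 2 (limma adjusted p up to 0.157). BIK had a log2 difference of -0.37 ± 0.14 (limma adjusted p = 0.110), which passed without RPF1 Tet+ 2 (-0.51, limma adjusted p = 0.0339). With chip as a fixed block 0 members were called.

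Induced RPF1 cells differed from Mock cells in the same medium at more members than in the other comparisons, and at more of all probes too. In RPF1 Tet- against Mock Tet- cells, 6 member probes of 5 genes were higher and 1 was lower, which is 46.7% of the 15, against 30.4% of all probes called. BCL2L1 was higher at both probes, by 0.96 ± 0.13 (ILMN_1742410, limma adjusted p = 0.000435) and 0.55 ± 0.09 (ILMN_1654118, limma adjusted p = 0.000919), both log2 with SE. BIK was higher by 0.96 ± 0.14 (limma adjusted p = 0.000579) and PMAIP1 by 0.91 ± 0.20 (limma adjusted p = 0.00569). BCL2L11 (0.59, ILMN_1774997) and BAX (0.58) were higher with limma adjusted p of 0.0167 and 0.0229. With the authors' processed values the changes of BCL2L11 and BIK were 0.30 and 0.63, both still called. BID was lower: probe ILMN_1763386 read 10.21, 9.89 and 10.25 in RPF1 Tet- and 10.69, 10.86 and 10.69 in Mock Tet- cells, without overlap, a log2 change of -0.63 ± 0.14 (limma adjusted p = 0.00491). With chip as a fixed block BCL2L1 (both probes) and BIK remained called, and on chip 2 alone BCL2L1 probe ILMN_1742410 only. The calls of BAX were lost without any 1 of RPF1 Tet- 1 or 3 and Mock Tet- 1 or 2, and those of BCL2L11 without RPF1 Tet- 2 or Mock Tet- 2. The comparisons above share arrays, so the same arrays enter several of them.

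Some members deviated together within groups. On the 4 high-scoring arrays PMAIP1 lay above its group mean 4 of 4 times. BAX, BID (ILMN_1763386), MCL1 (ILMN_1710028), BCL2L1 (ILMN_1742410) and BCL2 (ILMN_1697970, near background) lay below theirs 4 of 4 times. Over the 12 arrays the correlation of the deviation with the component score was 0.893 for PMAIP1, -0.910 for BAX, -0.907 for BID (ILMN_1763386), -0.881 for MCL1 (ILMN_1710028) and -0.821 for BAK1, against -0.168 for BIK. These are descriptions over arrays that share the same fit and the same component. The 4 arrays were chosen by that component, and the share of all probes with such patterns was not counted. The patterns are therefore not read as a result about the family. Without the 4 arrays the BAX log2 change was 0.51 in RPF1 Tet- against RPF1 Tet+ (limma adjusted p = 0.0193) and 0.64 in RPF1 Tet- against Mock Tet- (limma adjusted p = 0.00455), and that of PMAIP1 was 0.83 in RPF1 Tet- against Mock Tet- (limma adjusted p = 0.00211), all still called.

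**Figure D4:**
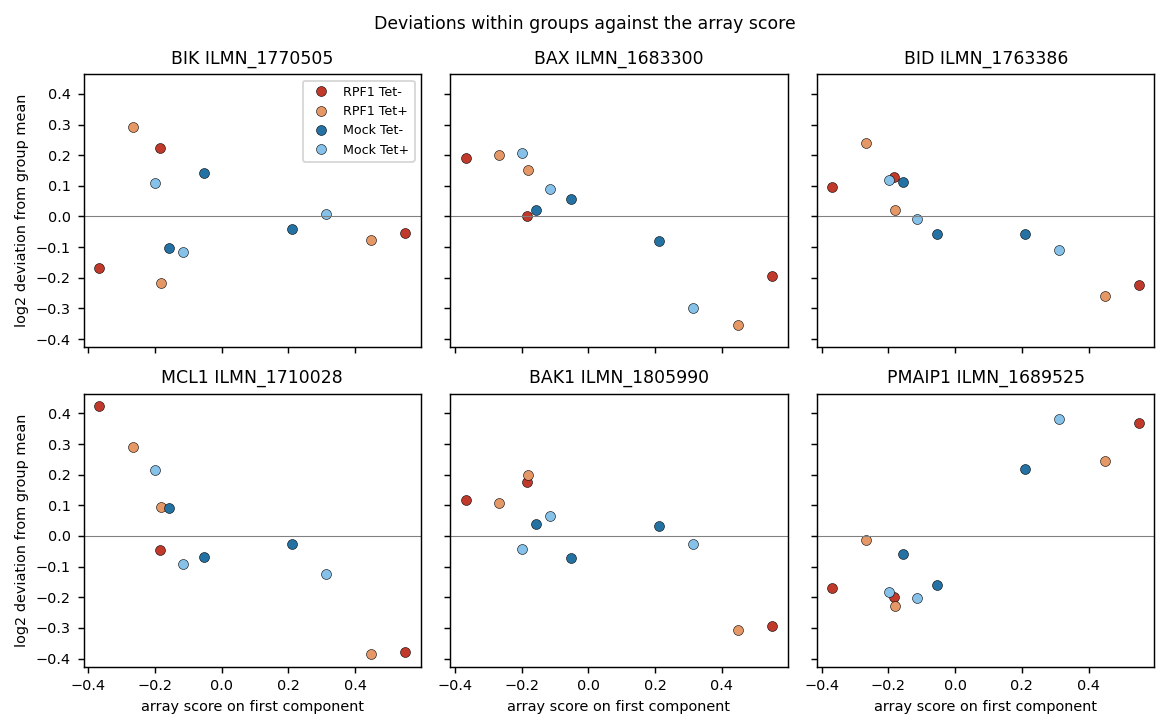
Log2 deviation from the group mean (y axis) against the array's score on the first component (x axis) for 6 member probes, with points coloured by group. PMAIP1 lies higher and BAX, BID and MCL1 lie lower on the 4 arrays at the right, while BIK shows no such pattern (r = -0.168 over 12 arrays).

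Beside the 12.7% of all probes called in RPF1 Tet- against RPF1 Tet+ cells, the lists of other genes that the BCL2 family works with had 9.09% (other BCL2 family), 14.3% (IAP proteins and antagonists), 7.69% (caspases and apoptosome), 16.7% (death receptors and adaptors) and 5.71% (partners and regulators) of their tested genes called, so no list is read as standing apart. Of 11 other BCL2 family genes tested, 1 was higher and 0 lower in RPF1 Tet- against RPF1 Tet+ cells: HRK, a BH3-only protein, read 10.01, 10.08 and 10.12 in RPF1 Tet- and 9.58, 9.44 and 9.69 in RPF1 Tet+ cells, a log2 change of 0.50 ± 0.09 (limma adjusted p = 0.00417). Of 7 IAP proteins and antagonists 1 was higher and 0 lower: HTRA2, a mitochondrial protease that counters IAP proteins once released, read 10.86, 10.74 and 10.75 in RPF1 Tet- and 10.16, 10.17 and 10.24 in RPF1 Tet+ cells. The groups did not overlap for either gene. The log2 change of HTRA2 was 0.60 ± 0.07 (SE, limma adjusted p = 0.000331), and with chip as a fixed block 0.67 (limma adjusted p = 0.0106), whereas that of HRK became 0.44 (limma adjusted p = 0.152).

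Of 13 caspase and apoptosome genes, 1 was higher and 0 lower in RPF1 Tet- against RPF1 Tet+ cells, CASP8AP2, which encodes a caspase-8 binding protein (0.45 log2, limma adjusted p = 0.0126). Of 12 death receptor and adaptor genes 2 were higher and 0 lower, the TRAIL receptors TNFRSF10A (0.58, limma adjusted p = 0.0276) and TNFRSF10B (0.39, limma adjusted p = 0.0232). Of 35 partners and regulators 2 were higher and 0 lower, the kinase PIM1 (0.49, limma adjusted p = 0.0370) and the mitochondrial channel VDAC2 (0.25, limma adjusted p = 0.0350). With chip as a fixed block 0 of these 5 passed, and of 12 omissions of single arrays the call was kept in 11 for CASP8AP2, 8 for TNFRSF10A, 9 for TNFRSF10B, 6 for PIM1 and 4 for VDAC2. In Mock Tet- against Mock Tet+ cells 0 genes of these 5 lists passed, and only HTRA2 passed where the Tet effects of the lines were compared.

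Against the Mock line, the inflammatory caspase gene CASP4 was lower in the RPF1 line with and without Tet. CASP4 read 9.30, 9.42 and 9.36 in RPF1 Tet- and 10.06, 10.22 and 10.14 in Mock Tet- cells, a log2 change of -0.78 (limma adjusted p = 0.000980), and 8.99, 9.22 and 8.67 in RPF1 Tet+ and 10.13, 10.11 and 10.33 in Mock Tet+ cells, a change of -1.23 (limma adjusted p = 0.000304). PPIF, the mitochondrial cyclophilin, was lower too, by -0.86 in RPF1 Tet- against Mock Tet- (limma adjusted p = 0.00250) and by -0.97 in RPF1 Tet+ against Mock Tet+ (limma adjusted p = 0.00366). The genes named above for the induced line were also higher in RPF1 Tet- against Mock Tet- cells, apart from VDAC2 (-0.10, limma adjusted p = 0.282): PIM1 by 0.95 (limma adjusted p = 0.000518), TNFRSF10B by 0.84 (0.000134), HRK by 0.65 (0.000423), CASP8AP2 by 0.63 (0.000997), HTRA2 by 0.58 (0.000242) and TNFRSF10A by 0.44 (0.0469). Further genes called there were the decoy TRAIL receptor TNFRSF10D (0.99, limma adjusted p = 0.00332), the mitochondrial BH3-like protein gene BNIP3L (0.61, limma adjusted p = 0.00232), the stress factor DDIT3 (0.59, limma adjusted p = 0.0214) and the adaptor TRADD (-0.65, limma adjusted p = 0.0247). None of them was called in RPF1 Tet- against RPF1 Tet+ cells. Values of RPF1 Tet+ and Mock Tet+ arrays did not overlap for TNFRSF10D (8.46, 8.36 and 7.94 against 7.59, 7.61 and 7.69). The same held for BNIP3L (11.08, 10.95 and 11.38 against 10.8, 10.91 and 10.91) and, downward, TRADD (6.88, 7.49 and 7.37 against 7.83, 7.69 and 7.54). For DDIT3 these groups overlapped. The BNIP3L change between them, 0.26, did not pass (limma adjusted p = 0.154). How many of all probes lack such overlap was not counted, so it is not read as a result about these genes. In RPF1 Tet+ against Mock Tet+ cells the nuclease gene ENDOG (-0.61, limma adjusted p = 0.0157) and the IAP gene BIRC2 (-0.31, limma adjusted p = 0.0240) were lower. In the same comparison VDAC2 was lower (-0.37, limma adjusted p = 0.00631), while TNFRSF10B (0.50, limma adjusted p = 0.00763) and PIM1 (0.48, limma adjusted p = 0.0385) were higher in the uninduced RPF1 line. With chip as a fixed block the calls of DDIT3, TRADD, ENDOG, BIRC2 and, in RPF1 Tet- against Mock Tet-, PPIF were lost, with limma adjusted p between 0.0750 and 0.300, as were those of VDAC2, TNFRSF10B and PIM1 in RPF1 Tet+ against Mock Tet+ and of CASP8AP2 and TNFRSF10A in RPF1 Tet- against Mock Tet-. Without the 4 high-scoring arrays TRADD was at -0.36 (limma adjusted p = 0.249) and DDIT3 lost its call (limma adjusted p = 0.0895). The calls of DDIT3, TRADD and ENDOG were kept in 9 of 12 omissions of single arrays each, that of BIRC2 in 7, that of PIM1 against Mock Tet+ in 5 and that of TNFRSF10A against Mock Tet- in 4. In RPF1 Tet- against Mock Tet-, where 30.4% of all probes were called, 2 of 11 other BCL2 family genes were higher and 0 lower (18.2%), 1 of 13 caspase genes was higher and 2 lower (23.1%), 1 of 7 IAP genes higher and 0 lower (14.3%), 5 of 35 partners higher and 7 lower (34.3%), and 4 of 12 death receptor genes higher and 2 lower (50%).

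The genes whose signal most resembled BIK over the 12 arrays were SNAI1 (r = 0.978), FAM43A (0.967), RASD1 (0.963), C10orf67 (0.959) and VGF (0.954), out of 11814 compared at 1 probe each. The most opposite were CHD9 (-0.968), MTX2 (-0.965), BAZ2B (-0.956), EYA1 (-0.956) and FERMT2 (-0.955). In all 81 genes reached r of 0.9 or more and 74 reached -0.9 or less. Among the members the closest were BAX (0.764) and BCL2L11 (0.745, ILMN_1774997). All these correlations share the same 4 groups of arrays, so any gene high in RPF1 Tet- cells alone scores high, and no p is given.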

How the data were processed

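Illumina bead arrays of HEK293 RNA were used. Per the file headers, the deposited intensity of each probe and its detection p-value were not normalized. The submitters' processing notes name BeadStudio, without a version. The authors' processed intensity table differed from a quantile normalization of the unprocessed signals by a median of 0.00626% (largest 2.11%).

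In limma 3.58.1 with R 4.3.3, background correction used the normexp model (normal plus exponential) inferred from detection p-values (offset 16), followed by quantile normalization and log2. Of 22184 probes, 19715 carried 1 gene symbol, 2469 none and 0 several; 17 gene identifiers were not in the RefSeq table. The filter kept 14752 probes, all fitted with 1 coefficient per group (8 residual degrees of freedom, prior 3.35) and 5 contrasts. A probe was called at a Benjamini-Hochberg adjusted p under 0.05 over all probes. Tested on simulated data for RPF1 Tet- against RPF1 Tet+, 95% of 100 log2 changes of 1 were recovered among 14752 probes. Of 100 changes of 0.5, 40% were recovered, with 6 false calls in all. The simulated noise was independent between probes and arrays. It had neither the shared first component nor the chip layout of the real arrays, so these rates may not carry over to them.

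Members, lists and alternatives were chosen with earlier results of these data known. Every member probe is named; of each list (at its brightest kept probe per gene), up to 4 genes called in RPF1 Tet- against RPF1 Tet+ and up to 2 called only elsewhere; and the 5 genes most and least like BIK. Sums over marker lists are of normalized signals. The endothelial list had 1 of 4 markers (VWF) on all arrays. Probe levels are not compared across probes, probe positions are not given for want of a named build, and precision is limited by having 3 arrays a group. The transfected factor's own level is not reported here.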

Additional observations from a re-analysis of the deposited data

Results flagged for a closer look

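The Tet effect of BIK differed between the lines by a test of the difference itself: it was larger in the RPF1 line than in the Mock line by 1.33 ± 0.20 on the log2 scale (SE, limma adjusted p = 0.00310). All 3 RPF1 Tet- arrays were above all 3 RPF1 Tet+ arrays, and the 3 Mock Tet- arrays overlapped the 3 Mock Tet+ arrays.

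The Tet effect of HTRA2 (ILMN_1747204) differed in the same way, by 0.48 ± 0.10 (SE, limma adjusted p = 0.0232). HTRA2 read 10.15, 10.26 and 10.21 in Mock Tet- and 10.11, 10.02 and 10.16 in Mock Tet+ cells, which overlap. The call was kept in 6 of 12 omissions of single arrays, and it was lost with chip as a fixed block (0.63, limma adjusted p = 0.127) and without the 4 high-scoring arrays (0.54, limma adjusted p = 0.0518).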

How the results depend on the processing

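BIK in RPF1 Tet- against RPF1 Tet+ kept its direction and its call in all alternatives, at 1.16 to 1.42 on the log2 scale when single arrays were left out. Member genes called in that comparison, 3 as reported, numbered 5 with no background correction, with the authors' values and with array weights, and 1, BIK, with no detection filter, chip as a fixed block, chip 2 alone and the replicate block. All probes called, 1877 as reported, numbered 1009 with only the arrays compared, 3329 with array weights, 435 with the chip block and 366 on chip 2 alone. In the difference of the Tet effects (1 member, 718 probes), array weights gave 3 members and 1523 probes, the chip block 0 and 105, chip 2 alone 0 and 82. There the replicate block gave 459 probes, and leaving out the 4 high-scoring arrays, an alternative chosen after seeing the data, gave 472. In RPF1 Tet+ against Mock Tet+ (2 members, 2142 probes), 1 member was called with no detection filter, with only the arrays compared and with the replicate block; the chip block gave 0 members and 293 probes, and chip 2 alone 0 and 115. In RPF1 Tet- against Mock Tet- (6 members, 4484 probes) the chip block gave 2 members and 1320 probes, and chip 2 alone 1 and 1150, while array weights gave 9 and 5934 and leaving out the 4 high-scoring arrays 9 and 4058. Leaving out single arrays gave 1 to 3 members and 1142 to 1788 probes in RPF1 Tet- against RPF1 Tet+, 1 to 2 and 426 to 699 in the difference of the Tet effects, 1 to 2 and 1121 to 2536 in RPF1 Tet+ against Mock Tet+, 4 to 7 and 3245 to 4614 in RPF1 Tet- against Mock Tet-, and 0 to 0 for both in Mock. The labels do not say whether equal replicate numbers pair the arrays. Of 18 same-numbered pairs 6 had deviations correlated over 0.1 (r -0.391 to 0.410), and 1 of 12 arrays was closest to its own number. Such deviations, taken from means of 3 arrays that share a strong first component, cannot decide whether the numbers pair cultures. The chip block and chip 2 alone rest on RPF1 Tet- 1 as the single induced array and on Mock Tet+ 3 as the single Mock Tet+ array. The cause of the shifts between alternatives was not tested. Of 3829 values of single probes under alternatives, 3582 kept their side of the threshold, 66 gained and 181 lost a call, and 0 called values changed sign.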
